A study of Mus musculus with 11 samples.

Results

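The genes described here carry out glucose uptake, glucose sensing and the electrical and hormonal responses that follow in insulin-producing β cells. They are the 7 genes Slc2a2, G6pc2, Abcc8, Kcnj11, Glp1r, Slc30a8 and Ucn3, of 18193 genes with a probe set of their own. They are read by 9 of the 45037 probe sets tested on an Affymetrix mouse array. The genes were chosen by name with earlier results of these data known, so counts of them beside all probe sets are descriptions. Each of 11 arrays measured the RNA of the whole pancreas of a 30-day-old female Balb/C mouse. The arrays form 4 groups. Low protein STZ (n = 3) are offspring of dams fed an isocaloric diet with 8% protein in gestation and injected with streptozotocin (STZ) at 35 mg per kg. Low protein sham (n = 3) are offspring of such dams injected with vehicle. Control STZ (n = 2, replicates 1 and 3, with replicate 2 not analysed here) are offspring of dams fed 20% protein and injected with STZ at the same dose. Control sham (n = 3) are offspring of dams fed 20% protein and injected with vehicle. All injections were given daily from day 1 to day 5 after birth, and all dams received the control diet once the pups were born. Diet was a treatment of the dams, and the labels used here do not tie offspring to litters, so litter and diet cannot be told apart. The arrays are labelled as biological replicates. With 2 or 3 arrays in a group, their number limits the precision of every value.

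Glucose enters the mouse β cell through the transporter GLUT2, the product of Slc2a2 and is broken down by glycolysis. ATP from its breakdown closes a potassium channel built of pores made by Kcnj11 and regulatory sulfonylurea receptors made by Abcc8, and the calcium influx that follows releases insulin. G6pc2 works against glycolysis by turning glucose 6-phosphate back to glucose. Slc30a8 loads zinc into insulin granules, Glp1r is the receptor through which the gut hormone GLP-1 strengthens secretion, and Ucn3 is a peptide that β cells release to stimulate somatostatin secretion. STZ is a glucose-linked alkylating toxin that GLUT2 carries into the cell, which is the basis of its toxicity to β cells.

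Values are the authors' deposited log2 signals, so that a difference of 1 is a 2-fold difference. A limit for dim probe sets was set at 6.866, the 0.25 quantile of all probe set means, because near it a difference in signal may understate a difference in RNA. The probe sets of Slc2a2 and Slc30a8 had means under that limit (6.29 and 6.80 over the 11 arrays), and those of G6pc2, Ucn3 and the dimmer probe sets of Abcc8 and Kcnj11 lay less than 1 unit above it. Acinar genes, the defining transcripts of this tissue, were bright, with a mean over 7 measured markers of 13.76 to 14.43 in low protein STZ, 14.11 to 14.26 in low protein sham, 14.52 in both control STZ arrays and 14.55 to 14.69 in control sham. Correlations between arrays ran from 0.978 to 0.995. Differences were tested in 1 fit of 4 group means across 45037 probe sets with limma, and are given with their standard error (SE), the 95% confidence interval where it helps, and p-values unadjusted and adjusted (Benjamini-Hochberg) over all 45037. No probe set passed an adjusted p of 0.05 in any of 6 comparisons (percent called 0 in each). At an unadjusted p under 0.05 the fit listed 1980 probe sets for STZ in the control diet, 1113 for STZ in the low protein diet, 4144 for diet in sham animals, 3407 for diet after STZ, 1456 for STZ averaged over diets and 1672 for the difference of the STZ differences. Fewer β cells and less RNA per β cell cannot be told apart in whole pancreas.

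G6pc2 and Slc2a2 were higher in control sham pancreas than in the other 3 groups, while the brighter probe sets of both potassium channel subunits had group means within 0.12 of each other. The G6pc2 probe set (1423529_at) gave 7.18, 7.11 and 7.02 in low protein STZ arrays and 7.45, 7.42 and 6.80 in low protein sham arrays. It gave 6.81 and 6.62 in control STZ arrays, against 8.66, 9.93 and 8.72 in control sham arrays. All 3 control sham arrays lay above the other 8, and the values of the 3 lower groups lay within 1 unit of each other.

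The Slc2a2 probe set (1449067_at) showed the same order of arrays at its upper end. It gave 6.08, 5.85 and 6.09 in low protein STZ, 6.45, 5.92 and 6.10 in low protein sham, 5.977 and 6.002 in control STZ and 6.70, 7.32 and 6.76 in control sham arrays. Control sham again stood above every other array. Of the low protein sham arrays, replicate 1 was the highest for both genes.

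**Figure D1:**
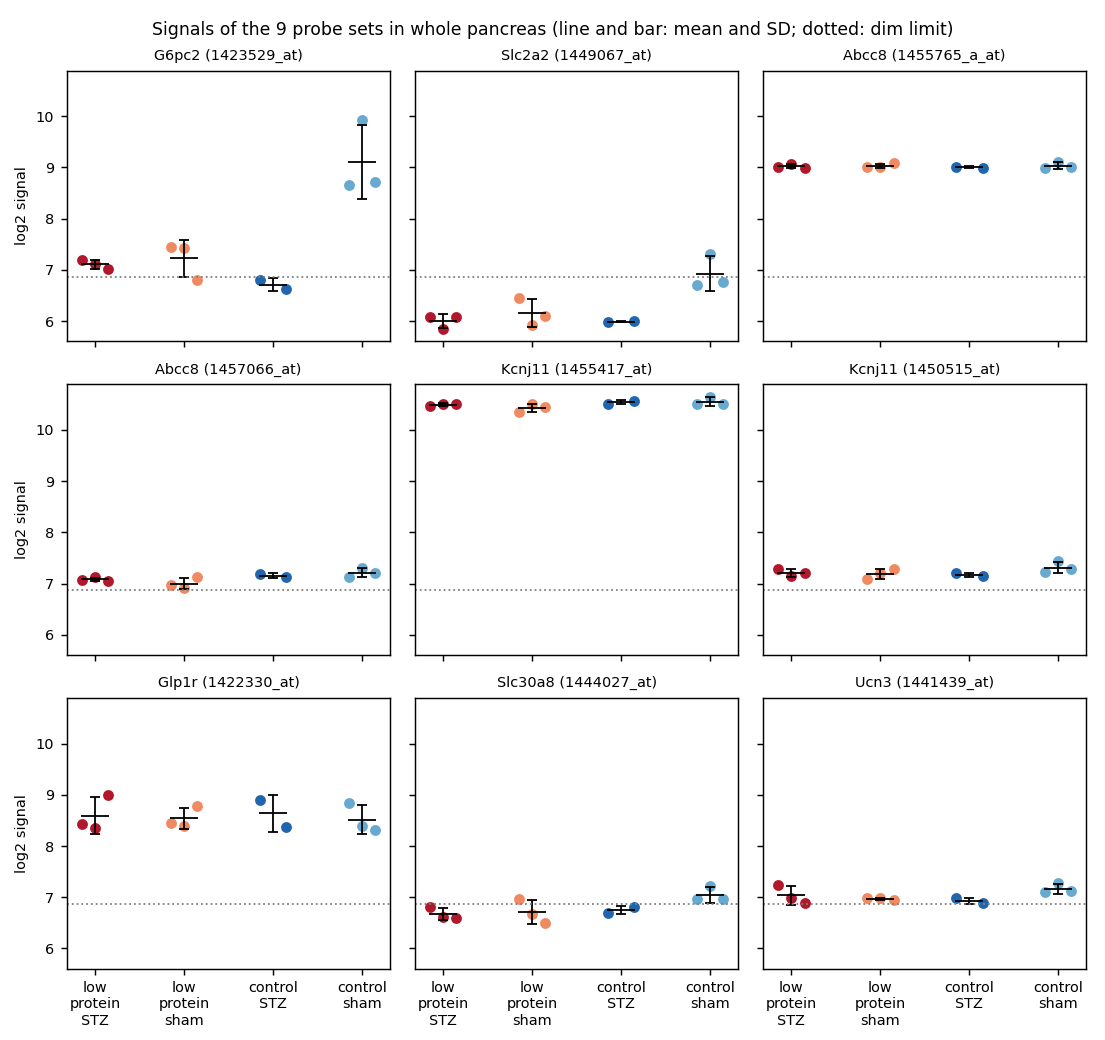
Deposited log2 signal of the 9 probe sets (panels) on each of the 11 arrays (points), by group, with the group mean and SD, and a dotted line at the dim limit of 6.866. G6pc2 and Slc2a2 are higher in control sham than in the other groups. Slc2a2 lies under the dim limit in those other groups and on control sham 1 and control sham 3. The brighter Abcc8 and Kcnj11 probe sets are level across groups.

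The promoters of G6pc2 and Slc2a2, the pair of members with the largest differences, are shown as the 250 bases before each start site in RefSeq (GRCm38.p6), read on the gene strand from 5′ to 3′. The table used here holds promoters of 4 of the 7 members, and G6pc2 has an upstream and a downstream start, at chr2:69210823-69211072 (+) and chr2:69219699-69219948 (+). Slc2a2 has 1 start, at chr3:28697653-28697902 (+). Capitals mark matches, on either strand, to 6 motifs of islet and liver factors: CTAATG (PDX1), CATCTG (NEUROD1), TGCTGAC (MAF), TGTTTAC (FOXA), GTTAAT (HNF1) and TTGACC (nuclear receptors).
G6pc2 upstream start: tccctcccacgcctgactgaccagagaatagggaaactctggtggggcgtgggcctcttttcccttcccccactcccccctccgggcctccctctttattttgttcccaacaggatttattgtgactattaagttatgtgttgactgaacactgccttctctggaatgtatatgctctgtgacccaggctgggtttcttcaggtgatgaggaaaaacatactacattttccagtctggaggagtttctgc
G6pc2 downstream start: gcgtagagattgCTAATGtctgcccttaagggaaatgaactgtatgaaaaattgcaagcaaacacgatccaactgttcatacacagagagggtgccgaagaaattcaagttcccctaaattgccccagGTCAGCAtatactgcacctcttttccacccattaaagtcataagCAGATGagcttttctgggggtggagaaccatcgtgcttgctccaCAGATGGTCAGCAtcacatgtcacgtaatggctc
Slc2a2 start: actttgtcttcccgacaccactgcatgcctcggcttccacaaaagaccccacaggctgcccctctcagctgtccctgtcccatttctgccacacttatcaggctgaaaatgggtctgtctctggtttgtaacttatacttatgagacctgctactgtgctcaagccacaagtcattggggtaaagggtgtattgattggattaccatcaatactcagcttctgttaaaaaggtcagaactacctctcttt
The downstream G6pc2 window held CTAATG once, CATCTG 2 times and TGCTGAC 2 times, the last 4 on the other strand, and one pair lay end to end 22 to 34 bases before the start. Among 32851 promoter windows of this length, 6.36% held CTAATG, 14.4% held CATCTG and 3.81% held TGCTGAC. The FOXA motif was in 3.17% of windows, the HNF1 motif in 6.43% and the nuclear receptor motif in 7.24%. These letters were not found in the upstream G6pc2 window or the Slc2a2 window. Of the other members with a window, Ucn3 held CATCTG once and Glp1r held none of the 6. A match of letters is a description of the sequence, and these arrays did not measure binding.

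The first comparison, of STZ with sham injection after a control pregnancy, addresses what the toxin left in the pancreas at 30 days of age. G6pc2 averaged 6.71 ± 0.13 (SD, n = 2) in control STZ and 9.10 ± 0.72 (n = 3) in control sham arrays, a log2 difference of -2.39 ± 0.33 SE, which is 5.25-fold lower. Slc2a2 averaged 5.99 ± 0.02 in control STZ and 6.92 ± 0.34 in control sham, a difference of -0.94 ± 0.19, or 1.91-fold lower. The adjusted test was not passed by either gene in limma (adjusted p = 0.937 for G6pc2 and 1.00 for Slc2a2, unadjusted p = 2.08e-05 and 0.000547). For both, each control STZ array lay below each control sham array. Each control STZ array also lay under the dim limit for both genes, so these differences in signal may understate a difference in RNA.

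The granule zinc transporter and the secreted peptide differed by far smaller amounts in the same direction. Slc30a8 (1444027_at) gave 6.70 and 6.81 in control STZ, against 6.96, 7.21 and 6.96 in control sham arrays, a difference of -0.29 ± 0.13. Ucn3 (1441439_at) gave 6.98 and 6.89 in control STZ, against 7.10, 7.28 and 7.12 in control sham, a difference of -0.23 ± 0.10. The groups did not overlap for either gene, and the confidence intervals just reached 0 (-0.59 to 0.01 for Slc30a8 and -0.46 to 0.00063 for Ucn3).

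The brighter channel probe sets and the GLP-1 receptor overlapped between these groups. The brighter Abcc8 probe set (1455765_a_at) gave 9.01 and 8.99 in control STZ and 8.98, 9.11 and 9.01 in control sham, a difference of -0.03 with an interval of -0.18 to 0.12. The brighter Kcnj11 probe set (1455417_at) gave 10.51 and 10.56 in control STZ and 10.50, 10.65 and 10.51 in control sham, a difference of -0.02 with an interval of -0.18 to 0.15. These intervals leave out a 2-fold difference in signal in either direction. Glp1r (1422330_at) was the most variable of the rest within groups, at 8.90 and 8.38 in control STZ and 8.85, 8.40 and 8.30 in control sham, with a difference of 0.12 and a wide interval of -0.40 to 0.64.

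The second probe sets of the channel genes were dimmer and spread differently. Abcc8 1457066_at gave 7.19 and 7.12 in control STZ and 7.12, 7.30 and 7.22 in control sham (difference -0.06 ± 0.08). Kcnj11 1450515_at gave 7.20 and 7.15 in control STZ and 7.22, 7.43 and 7.28 in control sham (difference -0.14 ± 0.09). For Kcnj11 the dimmer probe set separated the groups without overlap and the brighter one did not, so the probe sets of this gene disagree on that point.

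In all, 2 of the 7 genes were lower at an unadjusted p under 0.05 and 0 were higher, against 2.45% of all probe sets lower, 1.94% higher and 4.4% in either direction. Of the 9 probe sets, 5 lay lower without overlap and 0 higher, against 7.97% and 8.58% of all probe sets. The median difference of the 7 genes was -0.23 and that of all probe sets 0.003. As a yardstick of β-cell RNA, Ins2, which encodes insulin, differed by -1.72 ± 0.31 and Iapp, the amyloid peptide secreted with it, by -1.92 ± 0.39, neither passing (adjusted p = 1.00 in limma). The intervals of G6pc2 (-3.12 to -1.66) and Slc2a2 (-1.36 to -0.51) overlapped those of Ins2 (-2.40 to -1.03) and Iapp (-2.77 to -1.07). Those of all other member probe sets, the brighter Abcc8 and Kcnj11 ones among them, overlapped neither. Over the 11 arrays, Pearson's r with Ins2 was 0.20 for that Abcc8 probe set and 0.25 for that Kcnj11 probe set. It was 0.89 for G6pc2, 0.86 for Slc2a2, 0.82 for Slc30a8, 0.49 for Ucn3 and -0.37 for Glp1r. For the dimmer probe sets it was 0.32 for Abcc8 and 0.33 for Kcnj11. Which cells gave the signal of the brighter channel probe sets was not tested. Hormones of other islet cells differed by -0.82 ± 0.46 (Gcg, glucagon), -0.53 ± 0.26 (Sst, somatostatin) and -0.34 ± 0.25 (Ppy, pancreatic polypeptide). The other markers of those cells lay nearer 0, with Irx1 at 0.04, Irx2 at -0.03, Ttr at -0.02, Rbp4 at -0.09 and Hhex at 0.16. A check of RNA integrity, the Gapdh 3′ probe set minus its 5′ one, was 0.97 and 1.82 in control STZ against 1.41 to 1.62 in control sham, and its part in these values was not tested.

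**Figure D2:**
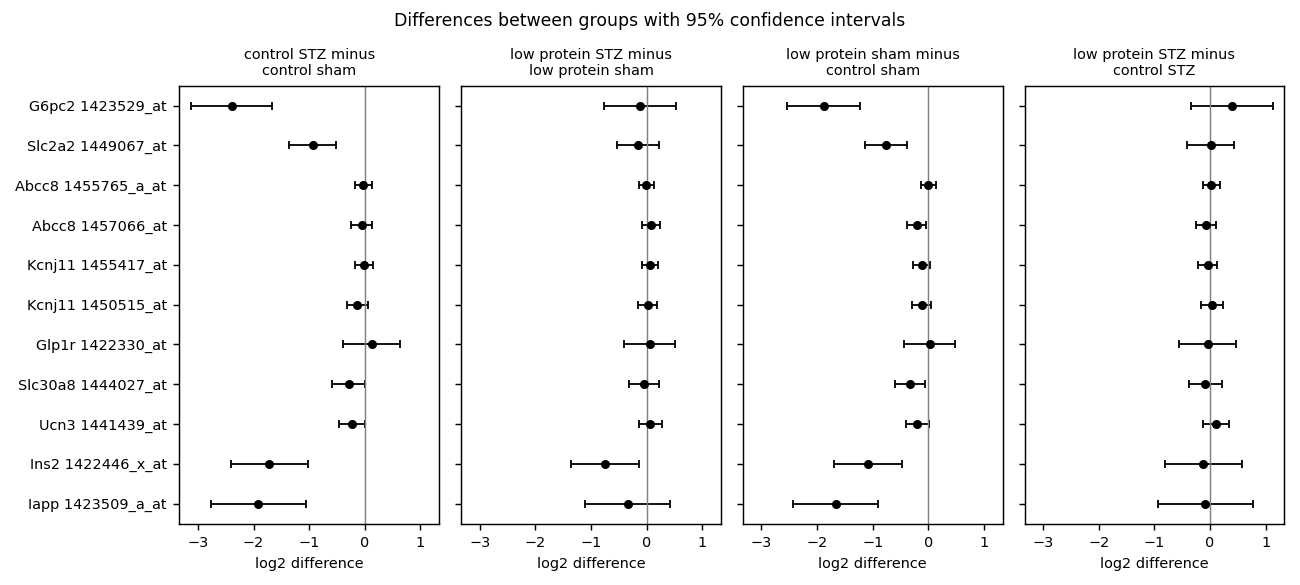
Log2 difference (points) with its 95% confidence interval (bars) for the 9 probe sets and, as a yardstick, Ins2 and Iapp, in the 4 pairwise comparisons. G6pc2 and Slc2a2 stand clear of 0 in both comparisons against control sham and have intervals that include 0 in the other comparisons.

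In offspring of protein-restricted dams, STZ and sham arrays overlapped for every member. G6pc2 averaged 7.11 ± 0.08 in low protein STZ and 7.22 ± 0.37 in low protein sham (n = 3 each), a difference of -0.12 ± 0.29 with an interval of -0.77 to 0.54. Slc2a2 averaged 6.003 ± 0.14 in low protein STZ and 6.16 ± 0.27 in low protein sham, a difference of -0.15 ± 0.17 with an interval of -0.53 to 0.22. The groups overlapped for both genes. The G6pc2 interval leaves out a 2-fold difference in signal. Slc2a2 lay under the dim limit in both groups. G6pc2 lay near that limit, with low protein sham 3 (6.80) under it. Neither interval therefore bounds a difference in RNA.

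The other members lay within 0.10 of 0. Slc30a8 gave 6.81, 6.61 and 6.59 in low protein STZ and 6.96, 6.68 and 6.51 in low protein sham arrays, a difference of -0.05 ± 0.12. Ucn3 gave 7.24, 6.98 and 6.88 in low protein STZ and 6.98, 6.98 and 6.95 in low protein sham arrays, a difference of 0.07 ± 0.09. The differences were 0.06 ± 0.07 and 0.02 ± 0.08 for the brighter and dimmer Kcnj11 probe sets, -0.01 ± 0.06 and 0.08 ± 0.07 for those of Abcc8, and 0.05 ± 0.21 for Glp1r. At an unadjusted p under 0.05 there were 0 of 7 genes in limma, 0 also after adjustment, against 1.52% of all probe sets lower, 0.953% higher and 2.47% in either direction. Without overlap lay 0 of 9 probe sets, against 4.15% of all probe sets lower and 3.1% higher. Ins2 stood at -0.75 ± 0.28 (limma, unadjusted p = 0.0215, adjusted p = 1.00) and Iapp at -0.34 ± 0.34. The Ins2 value was -0.46 without low protein sham 1, and its unadjusted p was under 0.05 in 12 of 20 alternatives.

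The STZ difference in low protein offspring minus that in control offspring was tested in the same fit. It was 2.28 ± 0.44 for G6pc2 (interval 1.30 to 3.26) and 0.78 ± 0.26 for Slc2a2 (0.21 to 1.35). Both had an unadjusted p under 0.05 in limma (0.000368 and 0.0117) and neither passed over all probe sets (adjusted p = 1.00 each). Ucn3 (0.30 ± 0.14), Slc30a8 (0.24 ± 0.18) and both probe sets of Kcnj11 (0.08 ± 0.10 and 0.15 ± 0.12) and of Abcc8 (0.02 ± 0.09 and 0.14 ± 0.11) were also above 0, and Glp1r was at -0.07 ± 0.31. So 2 of 7 genes were higher at an unadjusted p under 0.05 and 0 lower, against 1.69% of all probe sets higher, 2.03% lower and 3.71% in either direction. Iapp stood at 1.58 ± 0.52 and Ins2 at 0.97 ± 0.42. In low protein sham, Slc2a2 averaged 6.16, under the dim limit, and G6pc2 averaged 7.22, near it. A lower RNA level after STZ may be understated there. In control STZ both genes also averaged under that limit, at 6.71 for G6pc2 and 5.99 for Slc2a2. These are differences in signal, and the part of dimness in them was not tested.

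**Figure D3:**
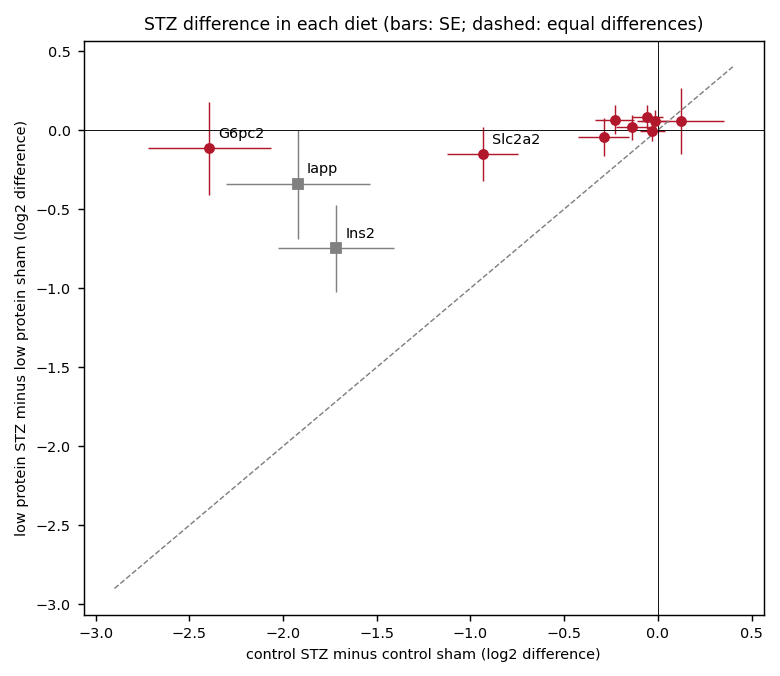
STZ difference (log2) in low protein offspring on the vertical axis against that in control offspring on the horizontal axis, with SE bars, for the 9 member probe sets (circles) and Ins2 and Iapp (squares). G6pc2 and Slc2a2 lie at -2.39 and -0.94 across and close to 0 upwards, far from the dashed line of equal differences. In low protein offspring both were near or under the dim limit, so their vertical values may understate a difference in RNA. Both were under it in control STZ, so their horizontal values may understate one too.

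Low protein and control sham animals were compared for what protein restriction before birth left in pancreas that met no toxin. It shares its control sham arrays with the STZ contrast in the control diet, so its values are not separate evidence on the level in control sham. G6pc2 averaged 7.22 ± 0.37 in low protein sham and 9.10 ± 0.72 in control sham, a difference of -1.88 ± 0.29, or 3.69-fold lower. Slc2a2 averaged 6.16 ± 0.27 in low protein sham and 6.92 ± 0.34 in control sham, a difference of -0.77 ± 0.17, or 1.70-fold lower. In limma neither passed (adjusted p = 0.259 each, unadjusted p = 6.37e-05 and 0.00103). Every low protein sham array lay below every control sham array for both genes. In low protein sham Slc2a2 lay under the dim limit and G6pc2 near it, so these differences may also understate a difference in RNA. With low protein STZ 1 left out, an array outside this comparison that enters through the shared spread, limma gave G6pc2 an adjusted p of 0.0291, the lowest of a range that reached 0.674 over the alternatives.

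Slc30a8 and Ucn3 differed by smaller amounts. Slc30a8 gave 6.96, 6.68 and 6.51 in low protein sham, against 6.96, 7.21 and 6.96 in control sham, a difference of -0.33 ± 0.12. Its groups met at their edges, where low protein sham 1 lay between control sham arrays. Ucn3 gave 6.98, 6.98 and 6.95 in low protein sham, against 7.10, 7.28 and 7.12 in control sham, a difference of -0.20 ± 0.09 with no overlap.

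The Abcc8 probe sets disagreed here, and those of Kcnj11 gave close values. The brighter Abcc8 probe set differed by -0.001 ± 0.061, with 9.01, 9.0 and 9.08 in low protein sham and 8.98, 9.11 and 9.01 in control sham. The dimmer one differed by -0.21 ± 0.07 (unadjusted p = 0.0168 and adjusted p = 0.414 in limma), with 6.96, 6.92 and 7.12 in low protein sham and 7.12, 7.30 and 7.22 in control sham. Both Kcnj11 probe sets differed by -0.12, with SE of 0.07 for the brighter and 0.08 for the dimmer, and overlapped between groups. Glp1r gave 8.45, 8.39 and 8.78 in low protein sham and 8.85, 8.40 and 8.30 in control sham, a difference of 0.02 ± 0.21.

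At an unadjusted p under 0.05, 3 of 7 genes (G6pc2, Slc2a2 and Slc30a8) were lower, against 5.98% of all probe sets, and 0 were higher, against 3.22% (9.2% in either direction). The number was 2 without control sham 2, low protein sham 2 or low protein sham 3, since Slc30a8 then had an unadjusted p over 0.05. By non-overlap 3 of 9 probe sets were lower and 0 higher, against 8.31% and 5.86% of all probe sets. The median of the 7 genes was -0.20 and that of all probe sets -0.01. Hormone transcripts of the islet stood lower in the same arrays: Iapp by -1.66 ± 0.34, Gcg by -1.57 ± 0.41, Ins2 by -1.09 ± 0.28 and Sst by -0.86 ± 0.23, with none passing in limma (adjusted p = 0.259 to 0.276). Ppy stood at -0.29 ± 0.22, with overlap between the groups. Other α-cell and δ-cell markers were mixed. Ttr was at -0.80 ± 0.31 and Rbp4 at -0.20 ± 0.09, against Irx1 at 0.32 ± 0.12, Irx2 at 0.08 ± 0.12 and Hhex at 0.01 ± 0.14. Acinar markers also stood lower, with 7 of 7 below 0 and a median of -0.39, Prss2 (trypsinogen) at -0.39 ± 0.09 among them. In limma 6 of 7 had an unadjusted p under 0.05, against 10.4% of all genes in either direction. The mean of 30 hybridisation control probe sets, which read bacterial and phage transcripts, was 10.10 to 10.35 in low protein STZ, 10.37 to 10.55 in low protein sham, 10.69 to 10.95 in control STZ and 10.77 to 10.97 in control sham. It was thus lower in every low protein array, and its part in the diet differences was not tested.

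Between the diets after STZ, the interval of every member included 0. G6pc2 gave 7.18, 7.11 and 7.02 in low protein STZ, against 6.81 and 6.62 in control STZ, a difference of 0.39 ± 0.33 with an interval of -0.33 to 1.12. The groups did not overlap, as in 8.59% of all probe sets on the higher side, and 0 members lay lower without overlap, against 12.6%. The means lie on either side of the dim limit. Slc2a2 differed by 0.01 ± 0.19 and Ucn3 by 0.10 ± 0.10, with overlap. The remaining probe sets lay between -0.08 and 0.04. By limma 0 of 7 genes had an unadjusted p under 0.05, against 5.49% of all probe sets lower, 2.08% higher and 7.56% in either direction, and 0 passed after adjustment.

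Averaged over diets (5 STZ and 6 sham arrays), STZ stood with G6pc2 at -1.25 ± 0.22 and Slc2a2 at -0.54 ± 0.13. In limma their unadjusted p were 0.00017 and 0.00152 and their adjusted p 1.00. They were the 2 genes of 7 lower at an unadjusted p under 0.05, against 2.19% of all probe sets, with 0 higher against 1.04% (3.23% in either direction). No member separated the STZ from the sham arrays of both diets, as 0.0844% of all probe sets did on the lower side and 0.0644% on the higher side. Slc30a8 was at -0.17 ± 0.09, Ucn3 at -0.08 ± 0.07 and Glp1r at 0.09 ± 0.16. The brighter and dimmer probe sets stood at -0.02 ± 0.05 and 0.01 ± 0.06 for Abcc8 and at 0.02 ± 0.05 and -0.06 ± 0.06 for Kcnj11.

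One array weighs on the level in control sham. Control sham 2 gave the highest signal of the 11 arrays in 8 of the 9 member probe sets, against 12.8% of all probe sets, and also the highest Ins2 (15.24) and Iapp (14.85). Without it the STZ difference in the control diet was -1.98 for G6pc2, -0.74 for Slc2a2, -0.20 for Slc30a8 and -0.17 for Ucn3. The diet difference in sham animals without it was -1.47 for G6pc2, -0.57 for Slc2a2, -0.24 for Slc30a8 and -0.14 for Ucn3. Leaving out low protein sham 1 as well, which had the highest Ins2 among low protein sham arrays (14.47), the diet difference became -1.58 for G6pc2 and -0.72 for Slc2a2.

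The genes whose signals ran most like each member were read from Pearson's r over the 11 arrays, as a description in which the shared gap between control sham and the other groups counts. For G6pc2 they were Nufip1 (0.944), the granin Chgb (0.932) and Iapp (0.924). For Slc2a2 they were Ajuba (0.932) and the granins Scg2 (0.932) and Chga (0.928). Slc30a8 ran most like the receptor Ntrk2 (0.941), the granin Scg5 (0.933) and Scg2 (0.929). Granins are proteins of endocrine secretory granules. Abcc8 ran with Fam3a (0.92), Dact3 (0.899) and Gm13306 (0.872), and Kcnj11 with Tmprss13 (0.956), Gja4 (0.945) and Abcg3 (0.941). Glp1r ran with Clic4 (0.937), Abhd13 (0.923) and Capn15 (0.913), and Ucn3 with the acinar factor Rbpjl (0.902), Spata33 (0.896) and Skp2 (0.875).

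Other genes of glucose metabolism and excitability had medians close to those of all genes. Of 40 listed glycolytic enzymes, glucose phosphatases, redox shuttles and channels, 34 had a probe set of their own. For control STZ minus control sham, 20 of the 34 lay below 0, with a median of -0.03 against 0.003 for all genes. At an unadjusted p under 0.05, 2 were lower and 1 higher, against 4.33% of all genes in either direction, and 0 passed after adjustment. The smallest p belonged to Trpm5 (-0.29 ± 0.11) and Trpm4 (-0.25 ± 0.09), calcium-activated cation channels of the β-cell membrane, then the calcium channel subunit Cacna1a (0.21 ± 0.08) and hexokinase Hk2 (-0.18 ± 0.09). The other glucose-6-phosphatases, G6pc of liver and the widely made G6pc3, differed by -0.18 ± 0.14 and 0.06 ± 0.09.

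For low protein sham minus control sham, 21 of the 34 lay below 0 with a median of -0.01, against -0.02 for all genes, and 2 were lower at an unadjusted p under 0.05, against 10.4% of all genes in either direction. They were the glycolytic kinase Pgk1 (-0.54 ± 0.20) and Trpm5 (-0.25 ± 0.09). Next came the malate dehydrogenase Mdh1 (-0.32 ± 0.16) and the pyruvate kinase Pklr (-0.14 ± 0.08).

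Receptors and cAMP signalling genes stood near 0 after STZ in the control diet. Of 24 genes listed, 20 were measured, 9 lay below 0 with a median of 0.01, and 0 had an unadjusted p under 0.05 in limma, against 4.33% of all genes, 0 also after adjustment. The smallest p belonged to Gcg (given above), the corticotropin-releasing hormone receptor Crhr1 (-0.09 ± 0.07), the somatostatin receptor Sstr3 (0.10 ± 0.08) and the GIP receptor Gipr (0.09 ± 0.07). In low protein sham minus control sham, 17 of 20 lay below 0 with a median of -0.05, against 55.9% of all genes below 0. At an unadjusted p under 0.05, 2 were lower, Gcg and Crhr1 (-0.15 ± 0.06), and 1 higher, Gipr (0.17 ± 0.07), against 10.4% of all genes in either direction. Gnas, the stimulatory G protein, was at -0.52 ± 0.25.

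Zinc handling was followed in 23 zinc transporters and metallothioneins, all measured. For control STZ minus control sham, 11 lay below 0, against 48.9% of all genes, and the median was 0.02. An unadjusted p under 0.05 was found for 1, against 4.33% of all genes: Slc39a7, which releases zinc from the secretory pathway into the cytosol (0.45 ± 0.20). The importer Slc39a8 was at -0.93 ± 0.50, Slc39a4 at -0.18 ± 0.12 and Slc30a10 at -0.11 ± 0.09. For low protein sham minus control sham, 18 of 23 lay below 0 with a median of -0.06, against 55.9% of all genes below 0. Slc30a9 (-0.27 ± 0.10) was the 1 gene at an unadjusted p under 0.05, against 10.4% of all genes. Slc39a10 (-0.21 ± 0.11), Slc30a3 (-0.12 ± 0.08) and Slc39a8 (-0.58 ± 0.45) followed.

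**Figure D4:**
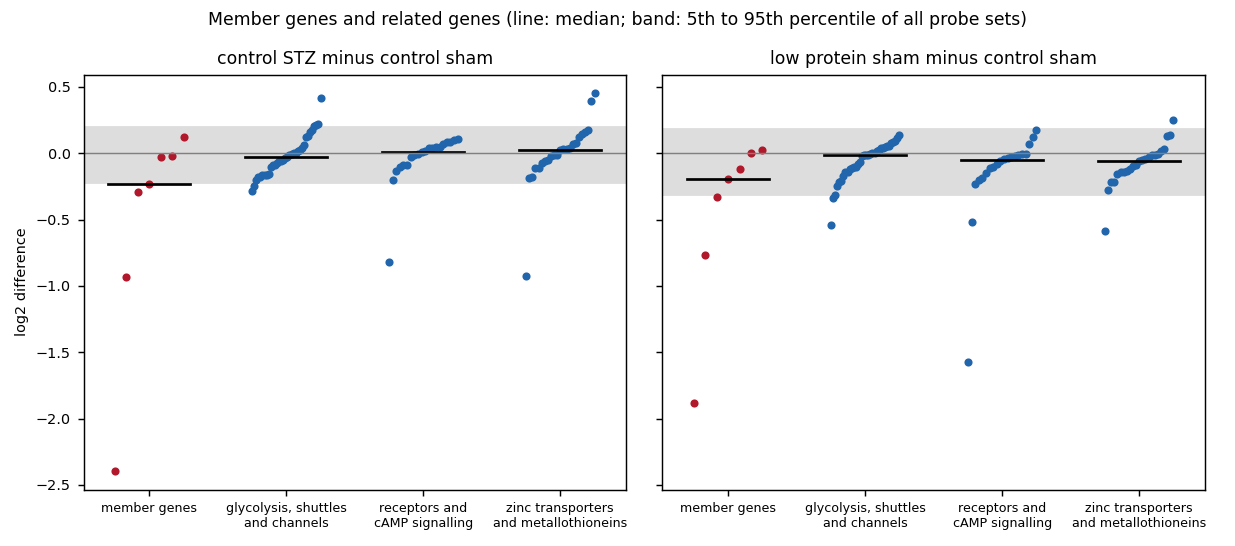
Log2 difference of each gene (points) and the median (line) for the 7 member genes and 3 lists of related genes, for control STZ minus control sham (left) and low protein sham minus control sham (right), over a band from the 5th to the 95th percentile of all probe sets. G6pc2 and Slc2a2 lie far below the band in both panels, and the medians of the related lists lie within 0.10 of 0.

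Several members are also made outside the islet, so markers of other sources were read in the same arrays. The mean of 7 measured liver markers, a tissue that also makes Slc2a2, was 8.09 to 8.21 in low protein STZ, 8.17 to 8.23 in low protein sham, 8.11 to 8.24 in control STZ and 8.11 to 8.24 in control sham. The mean of 5 intestinal markers, another such tissue, was 7.41 to 7.46 in low protein STZ, 7.28 to 7.43 in low protein sham, 7.32 to 7.35 in control STZ and 7.23 to 7.46 in control sham. Muscle markers, a tissue that makes Kcnj11, averaged 7.57 to 7.66 in low protein STZ, 7.58 to 7.65 in low protein sham, 7.58 in both control STZ arrays and 7.53 to 7.69 in control sham. Neuronal markers ran from 7.07 to 7.28 in low protein STZ, 7.13 to 7.21 in low protein sham, 7.09 to 7.15 in control STZ and 7.01 to 7.07 in control sham. β-cell markers, with 7 of 9 listed measured, averaged 9.29 to 9.56 in low protein STZ, 9.42 to 9.84 in low protein sham, 9.42 to 9.44 in control STZ and 9.95 to 10.16 in control sham. Among the β-cell transcription factors of that list, Pdx1 was at -0.31 ± 0.09 for control STZ minus control sham and -0.24 ± 0.08 for low protein sham minus control sham. Neurod1 was at -0.22 ± 0.12 and -0.13 ± 0.11 in the same comparisons, Nkx2-2 at -0.10 ± 0.07 and 0.04 ± 0.06, and Nkx6-1 at 0.06 ± 0.11 and 0.10 ± 0.10, so these factors did not all lie on one side of 0.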

How the data were processed

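Whole pancreas RNA of 11 mice in 4 groups was hybridised to Affymetrix arrays. The values the authors deposited are on a log2 scale, 1 signal for each probe set and array. The submitters' processing notes name Partek 6.5 and RMA without their role or order. The genome build of the probe sets is not given in the sources used here. Array medians ran from 7.92 to 7.97 and no further scaling was applied. Gene symbols came from the platform annotation (34958 with 1 symbol, 932 with several and 9211 with none), and 64 control probe sets were left out of the tests. For a gene with several probe sets, the one with the highest mean stands for it in counts of genes.

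All 45037 probe sets were fitted in 1 model of 4 group means with limma 3.58.1 (lmFit, then eBayes; R 4.3.3), two-sided, and p-values were adjusted by Benjamini-Hochberg at a threshold of 0.05, with no filter on dim probe sets, so that each of the 9 probe sets of the 7 members was tested. A filter at 6.866 would leave out Slc2a2 and Slc30a8. The fit was tested on simulated data. Tables and figures were made with Python 3.11.15 and matplotlib 3.10.9.

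The members and lists were chosen with earlier results of these data known. All probe sets of the members are named, up to 4 genes of each related list with the smallest p in either comparison against control sham, and the 3 genes with the highest correlation to each member. Alternatives were a replicate block, cyclic loess scaling, array weights, robust moderation with a trend, a fit of only the groups compared, 1 probe set per gene above the dim limit, dim probe sets left out, the 2 arrays at the ends of the first principal component left out, and each array left out in turn. Leaving out control sham 2 and low protein sham 1 together was added after seeing the data.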

Additional observations from a re-analysis of the deposited data

Results flagged for a closer look

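G6pc2 stands out because its arrays lay on opposite sides by diet without and with STZ: each low protein sham array lay below the control sham mean, and each low protein STZ array lay above the control STZ mean. The diet difference after STZ was itself 0.39 with a 95% confidence interval of -0.33 to 1.12. The difference between those diet differences, which equals the difference of the STZ differences, was 2.28 ± 0.44 in limma (unadjusted p = 0.000368, adjusted p = 1.00). Outside control sham, G6pc2 lay near the dim limit, where a difference in RNA may be understated.

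The dimmer Abcc8 probe set (1457066_at) stands out because both control STZ arrays lay below the control sham mean and all 3 low protein STZ arrays lay above the low protein sham mean. The difference of the STZ differences was 0.14 ± 0.11 in limma (unadjusted p = 0.248, adjusted p = 1.00), and the brighter Abcc8 probe set gave 0.02 ± 0.09. Groups of 2 or 3 arrays were too small to test single arrays as outliers.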

How the results depend on the processing

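Over 20 alternatives, G6pc2 and Slc2a2 stayed below 0 wherever they were tested for STZ in both diets, for diet in sham animals and for STZ averaged over diets, and above 0 in the difference of the STZ differences. For STZ in the low protein diet the values came close to 0, from -0.33 to -0.0033 for G6pc2 and from -0.27 to -0.0059 for Slc2a2, both nearest 0 without low protein sham 1. G6pc2 ran from -2.62 to -1.98 for STZ in the control diet and from -2.10 to -1.47 for diet in sham animals. Adjusted p for G6pc2 ran from 0.0646 to 1.00 for STZ in the control diet. Slc2a2 ran from -1.05 to -0.74 and from -0.92 to -0.57, and could not be tested where dim probe sets were left out. The probe sets past the adjusted threshold for diet in sham animals, 0 in the fit reported, numbered 62 without the arrays at the ends of the first principal component and 0 to 263 with single arrays left out (263 without low protein STZ 1, where G6pc2 passed at -1.88, and 1 without control sham 3). In the other comparisons the number was 0 under each alternative.

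Member genes at an unadjusted p under 0.05 for STZ in the control diet, 2 as reported, were 4 with only the groups compared, with trend and robust moderation and with cyclic loess, adding Slc30a8 and Ucn3. With dim probe sets left out or 1 probe set per gene, which tests 5 of the 7 genes, the number was 1 for STZ in the control diet, for diet in sham animals (3 reported), for STZ averaged over diets (2 reported) and for the difference of the STZ differences (2 reported). For diet in sham animals it was otherwise 2 to 4. For diet after STZ the number was 1 with only the groups compared and with control sham 2 and low protein sham 1 both left out, and 0 to 1 with single arrays left out (1 without control sham 2), G6pc2 in each case.

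The replicate numbers do not pair the arrays: deviations of same-numbered arrays correlated at -0.31 to 0.27 over 15 pairs, above 0.1 in 5, and 3 of 11 arrays correlated best with their own number. The replicate block left the calls as they were, and turned the sign of the brighter Kcnj11 probe set for STZ in the control diet (0.015) and of Glp1r for diet after STZ (0.040) and for the difference of the STZ differences (0.017).

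Signs turned in 74 of 1262 recomputed values. With array weights, STZ in the low protein diet gave 0.010 for the brighter Abcc8, -0.026 for the dimmer Kcnj11 and -0.11 for Glp1r. Diet in sham animals gave 0.0094 for the brighter Abcc8, and diet after STZ gave -0.058 for Slc2a2, 0.080 for Ins2 and 0.029 for Iapp. With cyclic loess, the brighter Abcc8 gave 0.0068 for STZ in the low protein diet and 0.016 for diet in sham animals, and diet after STZ gave 0.12 for the brighter Kcnj11, 0.46 for Ins2 and 0.41 for Iapp. Without the arrays at the ends of the first principal component, STZ in the low protein diet gave -0.022 for the dimmer Kcnj11 and -0.039 for Ucn3. Diet after STZ gave -0.023 for Slc2a2, -0.0054 for the dimmer Kcnj11, 0.040 for Glp1r, -0.0042 for Ucn3 and 0.078 for Iapp, and STZ averaged over diets gave -0.0097 for the dimmer Abcc8. With control sham 2 and low protein sham 1 both left out, STZ in the control diet gave 0.0089 for the brighter Abcc8 and 0.031 for the brighter Kcnj11. STZ in the low protein diet gave -0.030 for the dimmer Kcnj11, 0.077 for Slc30a8 and 0.097 for Iapp. Diet in sham animals gave 0.045 for the brighter Abcc8, and the difference of the STZ differences gave -0.026 for the brighter Abcc8 and -0.013 for the brighter Kcnj11.

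With single arrays left out, signs turned within these ranges. STZ in the control diet ran from -0.053 to 0.0089 for the brighter Abcc8, -0.045 to 0.031 for the brighter Kcnj11 and -0.14 to 0.38 for Glp1r. STZ in the low protein diet ran from -0.030 to 0.063 for the dimmer Kcnj11, -0.15 to 0.077 for Slc30a8, -0.73 to 0.097 for Iapp, -0.15 to 0.18 for Glp1r, -0.031 to 0.017 for the brighter Abcc8 and -0.039 to 0.14 for Ucn3. Diet in sham animals ran from -0.026 to 0.036 for the brighter Abcc8 and -0.099 to 0.19 for Glp1r. Diet after STZ ran from -0.30 to 0.21 for Glp1r, -0.24 to 0.078 for Iapp, -0.34 to 0.036 for Ins2, -0.028 to 0.092 for Slc2a2, -0.0054 to 0.069 for the dimmer Kcnj11, -0.0042 to 0.18 for Ucn3 and -0.0032 to 0.038 for the brighter Abcc8. STZ averaged over diets ran from -0.011 to 0.043 for the dimmer Abcc8, -0.030 to 0.00067 for the brighter Abcc8 and -0.042 to 0.22 for Glp1r. The difference of the STZ differences ran from -0.017 to 0.046 for the brighter Abcc8 and -0.33 to 0.19 for Glp1r. The cause of these turns was not tested.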

Other observations

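Some member values were identical to every deposited digit on several arrays. Ucn3 stood at 6.98 on 4 arrays of 3 groups (low protein STZ 2, low protein sham 1 and 2, and control STZ 1), and the dimmer Abcc8 probe set at 7.12 on 3 arrays. Slc30a8 and the brighter probe sets of Abcc8 and Kcnj11 each had 1 value on 2 arrays, and G6pc2, Slc2a2, Glp1r and the dimmer Kcnj11 probe set had none. Over all 45037 probe sets, 55.9% had a value shared by at least 2 arrays and 8.23% by at least 4. The small SD of Ucn3 in low protein sham (0.02) comes with such a tie.

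Slc39a8, a zinc importer, had the widest spread of the zinc genes named, with an SD of 0.87 in low protein sham and 0.84 in control sham, against 0.18 in low protein STZ and 0.31 in control STZ.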
